A study of Cavia porcellus with 12 samples.

Results

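The miR-30 family comprises 6 precursors in these data, hsa-mir-30a, hsa-mir-30b, hsa-mir-30c-1, hsa-mir-30c-2, hsa-mir-30d and hsa-mir-30e (the human prefix is left out below). An entry of the deposited tables is 1 sequence listed under 1 human precursor, and an entry was taken as a member when its name ended in exactly 1 of these 6 precursors. There were 104 such entries among the 5095 of all 3 tables. Of these, 79 of 1610 were in the table of DOX and DMSO at 1 h, 67 of 1335 in that of DOX and DMSO at 22 h, and 94 of 4979 in that of DOX at 22 h and DOX at 1 h. The members were chosen by name and not by any measured value.

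The cells were ventricular cardiomyocytes of adult female Hartley guinea pigs, released from the heart by perfusion with enzymes. They were kept with 10 µM doxorubicin (DOX), an anthracycline used against cancer, or with the solvent DMSO alone, for 1 h or 22 h at room temperature. Small RNA was sequenced in 12 libraries, 3 each for DMSO 1 h, DOX 1 h, DMSO 22 h and DOX 22 h. No label states whether the libraries of a group came from separate animals. Besides the authors' own comparison, which was not used, each table gives 1 mean of normalized reads over both sides. It gives no value for each library.

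A miRNA is cut from a hairpin precursor, and each side of the hairpin can give a mature strand, called the 5p or the 3p arm. Bases 2 to 8 of a mature miRNA, the seed, pair with target mRNAs, and miRNAs with the same seed form a family. The miR-30 family is abundant in cardiomyocytes and is known for restraining connective tissue growth factor, autophagy genes such as Beclin 1, and the mitochondrial fission pathway. In the human genome the precursors lie in pairs that are transcribed together, mir-30a with mir-30c-2, mir-30b with mir-30d, and mir-30c-1 with mir-30e.

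The most abundant listed sequence of each arm is shown for 4 members, because the near identity of the 5p arms and the difference between the 3p arms decide how far reads can be told apart. They are given as DNA letters, as listed in the table of DOX 22 h and DOX 1 h. Capitals in the 5p arms mark the first 9 bases, which were the same in the most abundant form of all 6 precursors.
mir-30a 5p: TAAACATCCtcgactggaagc
mir-30e 5p: TAAACATCCttgactggaagc
mir-30c-1 5p: TAAACATCCtacactctcagc
mir-30c-2 5p: TAAACATCCtacactctcagc
The 3p arms fell into 2 kinds, and capitals mark the first bases shared within each kind, 7 for mir-30a, mir-30d and mir-30e and 5 for mir-30b, mir-30c-1 and mir-30c-2.
mir-30a 3p: TTCAGTCggatgtttgcagc
mir-30e 3p: TTCAGTCggatgtttacagc
mir-30c-1 3p: GGGAGagggctgtttactcc
mir-30c-2 3p: GGGAGaaggctgtttactct

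Counted from 1 at the 5′ end of the listed form, mir-30a and mir-30e differed at 1 of 21 bases in the 5p arm (C11T) and at 1 of 20 in the 3p arm (G16A). The 5p arm of mir-30c-1 differed from that of mir-30a at 5 of 21 bases (C11A, G12C, G16C, G17T and A18C). The 5p arms of mir-30c-1 and mir-30c-2 did not differ at any of 21 bases, whereas their 3p arms differed at 2 of 20 (G7A and C20T). Listed sequences were 12 to 21 bases long in all tables. As background, the mature miR-30 5p strands begin upstream of the first base listed here, so the forms shown do not hold the whole seed.

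The family made up a similar share of all 3 tables. Its means summed to 360877 normalized reads, 6.14% of the table, for DOX and DMSO at 1 h. They summed to 319895, 6.70%, for DOX and DMSO at 22 h and to 369588, 6.15%, for DOX at 22 h and 1 h. The tables were normalized separately, so shares and not sums are set side by side across them. Because a mean covers both sides, these shares carry no spread between replicates and no test. The 22 h table and the table of both DOX times also have the DOX 22 h reads in common.

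A group of 3 of the 5p arms, those of mir-30a, mir-30d and mir-30e, carried most of the family. The 5p arm of mir-30a had a summed mean of 140867 at 1 h, 129566 at 22 h and 148878 for DOX at 22 h and 1 h, which was 39.0%, 40.5% and 40.3% of the family. The 5p arm of mir-30d had 93786, 74846 and 87107, or 26.0%, 23.4% and 23.6%. The 5p arm of mir-30e had 67571, 62620 and 76616, or 18.7%, 19.6% and 20.7%. By these sums they held ranks 1, 2 and 3 in every table, and mir-30a had rank 9 among all 243, 224 and 287 precursors with a mean. The order of mir-30d and mir-30e depends on summing forms. The most abundant 5p form of mir-30e had means of 28576, 24378 and 31661 in the 3 tables. That of mir-30d had 25536, 18165 and 23226.

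As listed, the 5p arms of mir-30b, mir-30c-1 and mir-30c-2 lay close together. Their sums were 15309, 15599 and 15544 at 1 h, 14029, 13622 and 13655 at 22 h, and 14774, 15283 and 15229 for DOX at 22 h and 1 h. Their order was mir-30c-1, mir-30c-2, mir-30b in the 1 h table and in the table of both DOX times, and mir-30b, mir-30c-2, mir-30c-1 at 22 h. No spread over samples is available to separate these neighbours. Since the 5p reads of mir-30c-1 and mir-30c-2 come from the same sequences, they are 1 quantity rather than a pair of levels. Each mir-30c sum is only a part of that quantity. The closeness to mir-30b, which has 1 listed form, and the order therefore depend on how the listing divides reads.

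**Figure D1:**
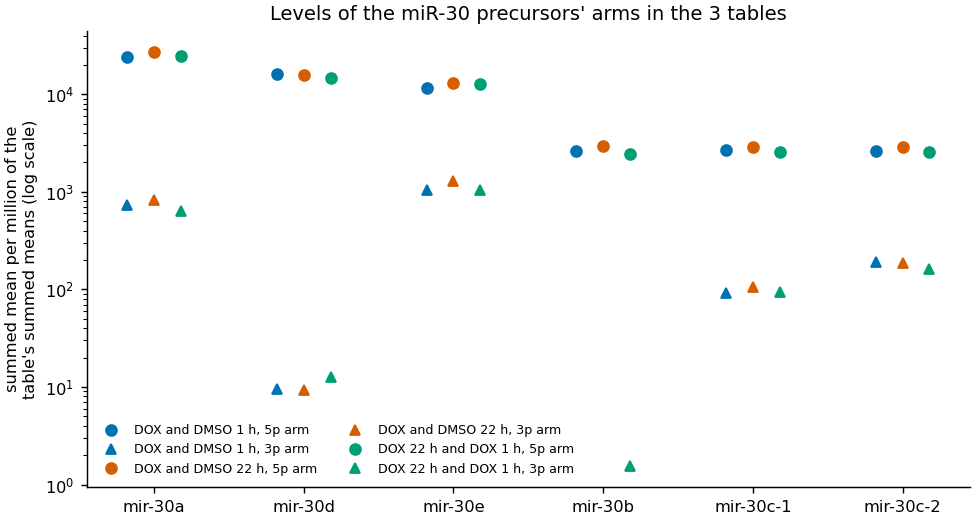
Summed mean of each arm of the 6 precursors as reads per 1000000 of the summed means of its table, on a log axis, with circles for 5p arms, triangles for 3p arms and a colour for each of the 3 tables. The 5p arms of mir-30a, mir-30d and mir-30e lie above those of the other 3 precursors, and the 3p arms spread over a far wider range than the 5p arms.

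The listing for mir-30c-1 and mir-30c-2 divided shared reads evenly. There were 9 sequences of the 5p arm that stood under both precursors. Of the summed mean of those with a value under both, 50.1% stood under mir-30c-1 at 1 h, 49.9% at 22 h and 50.1% for both DOX times. The form of 21 bases had means of 9777 and 9739 at 1 h, 8636 and 8698 at 22 h, and 9769 and 9643 in the third table. The 3p arms of these 2 precursors, which can be told apart by sequence, were not even. The 3p sum of mir-30c-2 was 1113, 894 and 976 in the 3 tables, against 543, 504 and 560 for mir-30c-1.

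The 5p arm dominated in each precursor, but by very different margins. Over the whole family 96.6%, 96.4% and 96.8% of the summed mean was 5p. As listed, the least one-sided was mir-30e, with 91.6%, 91.1% and 92.5% in its 5p arm, followed by mir-30c-2 with 93.3%, 93.9% and 94.0%. The 5p share was 97.1%, 97.0% and 97.5% for mir-30a, and 96.6%, 96.4% and 96.5% for mir-30c-1. It was 99.9% for mir-30d in each table. Among all precursors with both arms in a table (103, 95 and 140), the median share of the more abundant arm was 96.7%, 96.1% and 96.3%, and that arm was the 5p arm in 60.2%, 61.1% and 60.7% of them.

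The 3p order was not the 5p order. The 3p arm of mir-30e was the most abundant, with summed means of 6208, 6145 and 6227, above that of mir-30a with 4281, 3970 and 3853, although the 5p arm of mir-30a exceeded that of mir-30e. The 3p arm of mir-30d, the precursor second in the order of 5p sums, summed to 55.7, 45.0 and 76.2. For mir-30b a 3p arm was listed with a mean only in the table of both DOX times, as 1 form with a mean of 9.26.

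Among precursors transcribed together, the 5p arms differed by 4.33-fold to 9.78-fold. The ratio of mir-30a to mir-30c-2 was 9.06, 9.49 and 9.78 in the 3 tables. The ratio of mir-30d to mir-30b was 6.13, 5.34 and 5.90, and that of mir-30e to mir-30c-1 was 4.33, 4.60 and 5.01. The 3p arms of these pairs had ratios of 3.85, 4.44 and 3.95 for mir-30a to mir-30c-2 and of 11.4, 12.2 and 11.1 for mir-30e to mir-30c-1, and that of mir-30d to mir-30b was 8.22 in the table of both DOX times. The 5p ratios depend on how many forms are listed, of which mir-30b has 1. With the most abundant form of each arm only, they were 4.32, 4.18 and 4.62 for mir-30a to mir-30c-2, 1.67, 1.29 and 1.57 for mir-30d to mir-30b, and 2.92, 2.82 and 3.24 for mir-30e to mir-30c-1. Because reads of the mir-30c 5p sequence were listed under both precursors, the 5p ratios to either of them are uncertain.

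The forms of an arm (isomiRs) differed in length, in the last base or in the start. Nearly all of the 5p signal began at the same base, with 96.4%, 96.3% and 95.8% of the family's 5p mean at the first start of its arm. For the 3p arms this share was 93.4%, 94.1% and 93.2%. Most of the 5p mean was in the longest listed forms. Forms of 21 bases took 38.0%, 36.7% and 39.2% of the family's 5p mean and forms of 20 bases 32.7%, 30.3% and 31.8%. No listed sequence exceeds 21 bases, so a listed length or start need not be that of the molecule. The 3p arms ended earlier, with 67.6%, 70.0% and 68.7% in forms of 20 bases.

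Members divided their 5p reads among forms in different ways. In mir-30a the forms of 21, 20 and 19 bases that match the arm's sequence took 29.9%, 28.7% and 21.7% at 1 h, 28.1%, 26.5% and 22.0% at 22 h, and 29.9%, 28.1% and 21.6% for both DOX times. In mir-30d the form of 20 bases led with 27.2%, 24.3% and 26.7%. In mir-30e the form of 21 bases led with 42.3%, 38.9% and 41.3%. The mir-30c precursors were the most uniform of the members with several forms, with 62.7% to 63.9% of either 5p arm in the form of 21 bases. A single 5p form was listed for mir-30b, of 20 bases, with means of 15309, 14029 and 14774.

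A start 1 base later was most frequent in mir-30e. It took 10.5%, 10.4% and 11.5% of the 5p arm of mir-30e, against 2.55%, 2.48% and 2.79% in mir-30a and 0.967%, 0.953% and 1.01% in mir-30d. A form whose last base differed from the arm's sequence made up 7.47%, 7.23% and 7.65% of the 5p arm of mir-30a. Such forms made up 9.10%, 8.41% and 9.25% in mir-30d and 5.59%, 5.40% and 5.71% in mir-30e. No 5p form of the mir-30c precursors had a differing last base.

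In mir-30a, mir-30d and mir-30e, the form of 18 bases was the one whose share differed most between tables. In mir-30a it was 7.28% at 1 h, 11.3% at 22 h and 7.76% for both DOX times. In mir-30d it was 14.9%, 20.7% and 15.7%, and in mir-30e 4.94%, 8.35% and 5.46%. In all 3 members the table of DOX and DMSO at 22 h had the highest value. In mir-30c-1 and mir-30c-2 the form of 18 bases stayed between 1.19% and 1.40% in every table.

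**Figure D2:**
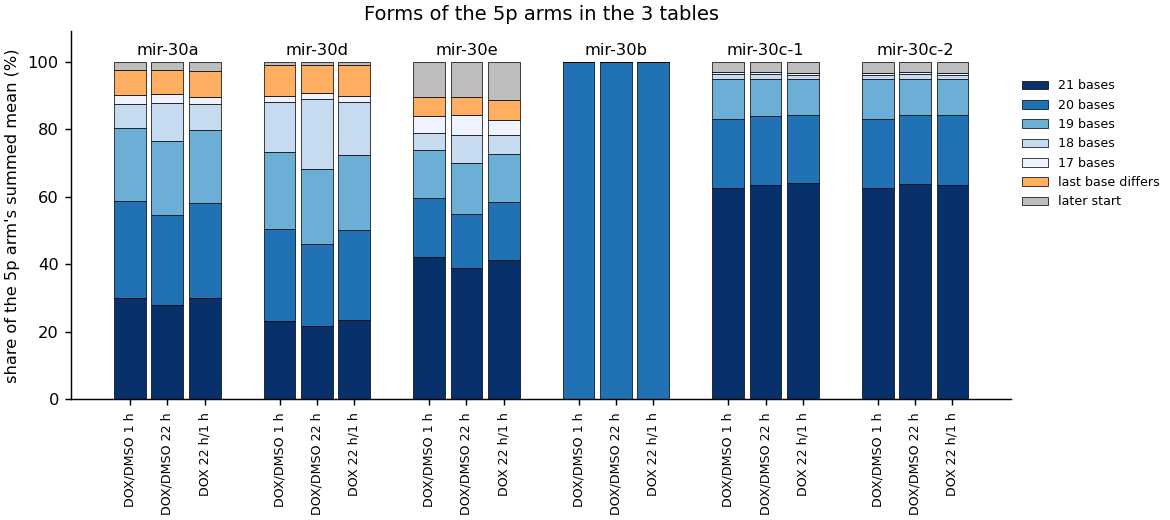
Share of the 5p arm's summed mean, in percent, in forms of 17 to 21 bases that match the arm's sequence, in forms whose last base differs and in forms with a later start, with 1 stacked bar for each precursor and table. The segment of 18 bases is larger in the table of DOX and DMSO at 22 h than in the other 2 tables for mir-30a, mir-30d and mir-30e.

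The means of the tables that hold DOX 22 h could be resolved into 1 set of reads a side. Every mean at 22 h (1323) and every nonzero mean for both DOX times (2369) could be written as whole reads of one side plus whole reads of the other, each times a fixed step. Names of predicted miRNAs inside these tables carry the replicate C1 on each side. The set of reads common to both tables is, by these names, the C1 library of DOX 22 h, and its partners are those of DMSO 22 h and DOX 1 h. Reads pooled over several libraries of a side would also give whole numbers, so the assignment to single libraries rests on these names, and a library below means such a set of reads. Solving both tables together gave exactly 1 set of reads for 1216 of the 1323 entries, and none of the entries was without a solution. With 1 set of reads a side there is no replicate check and no p-value, and the intervals below are exact 95% binomial (Clopper-Pearson) intervals that cover counting error only.

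Reads were recovered for all 28 member entries of the 3p arms at 22 h, but for 24 of the 39 entries of the 5p arms, which hold 15.1% of the family's 5p mean. The 15 entries left out were the most abundant 5p forms, for which 3 to 14 combinations of reads were possible. A ratio was called when its absolute scaled log2 value reached 0.8 with at least 20 reads over both libraries. Over all precursor arms with that many reads, 11.4% (36 of 315) were called between DOX 22 h and DMSO 22 h and 7.26% (23 of 317) between DOX 22 h and DOX 1 h. None of the family's 10 arms with enough reads was called in either comparison. With at least 100 reads, 9 of 228 and 4 of 245 of all arms were called in these comparisons. All family arms but mir-30d 3p had far more than 100 reads, so the lack of a call does not set the family apart.

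All 5 of the 3p arms with recovered reads had a ratio below 0 between the DOX 22 h and the DMSO 22 h library. In the 3p arm of mir-30a there were 3542 reads in the DOX 22 h library and 4338 in the DMSO 22 h library, which after scaling was a log2 ratio of -0.46 (interval -0.53 to -0.40). That of mir-30e had 5626 and 6586 reads, a log2 ratio of -0.40 (interval -0.45 to -0.35). Both intervals lie below 0 and above the limit of -0.8, so the differences exceeded counting error but not the size set for a call.

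The 3p arms of the other precursors had fewer reads. That of mir-30c-1 had 494 reads in the DOX 22 h library and 511 in the DMSO 22 h library, a log2 ratio of -0.22 (interval -0.40 to -0.04). That of mir-30c-2 had 907 and 880 reads, a log2 ratio of -0.13 with an interval that included 0 (-0.26 to 0.01). For mir-30d, 37 and 52 reads gave -0.66, with a wide interval of -1.31 to -0.02. Summed over the family, 10606 and 12367 reads of the 3p arms gave a log2 ratio of -0.39 (interval -0.43 to -0.35). The median over all 315 arms was 0.01, with quartiles of -0.25 and 0.27, and 151 of these arms lay below 0.

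Against DOX 1 h, all 5 of the 3p arms had a ratio above 0. In mir-30a the 3p arm had 3548 reads in the DOX 22 h library and 4135 in the DOX 1 h library, a scaled log2 ratio of 0.14 (interval 0.08 to 0.21). That of mir-30e had 5631 and 6882 reads, or 0.07 (interval 0.02 to 0.12). With that table solved on its own the 3p arm of mir-30a had a ratio of -0.96 from 6 and 15 reads, and the most abundant 3p entry of mir-30e alone was at -0.06. For mir-30c-2 the log2 ratio was 0.16 (interval 0.03 to 0.29), and for mir-30c-1 0.04 with an interval that included 0 (-0.14 to 0.21). For mir-30d, 59 and 55 reads gave 0.46, also with an interval that included 0 (-0.09 to 1.02). The family's 3p sum had a log2 ratio of 0.10 (interval 0.07 to 0.14). Over all 317 arms the median was 0.006, with quartiles of -0.22 and 0.23, and 161 arms lay above 0. Of all 628 3p entries with enough reads, 371 lay above 0. Apart from that of mir-30d, the members' 3p ratios lay within these quartiles. The reads of DOX 22 h enter both comparisons, so both sets of ratios are not independent.

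The recovered 5p forms had a sum nearer to 0 over DMSO 22 h. Summed over the family, they had 47637 reads in the DOX 22 h library and 45163 in the DMSO 22 h library, a scaled log2 ratio of -0.09 (interval -0.11 to -0.07). By member the log2 ratio was 0.08 for mir-30a, 0.05 for mir-30d, -0.35 for mir-30e, -0.17 for mir-30c-1 and -0.16 for mir-30c-2. That of mir-30d turned to -0.06 with each table solved on its own or with only entries of at most 1000 reads, when 1 form with 741 and 686 reads was left. Against DOX 1 h the family's 5p sum was at 0.09 (interval 0.08 to 0.11), with members from -0.04 for mir-30d to 0.24 for mir-30e, and that of mir-30c-2, 0.03, turned to -0.27 from 11 and 17 reads with that table solved on its own. These sums describe the less abundant forms of mir-30a, mir-30d and mir-30e, of which the recovered share of the 5p mean at 22 h was 12.1%, 11.2% and 19.7%.

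**Figure D3:**
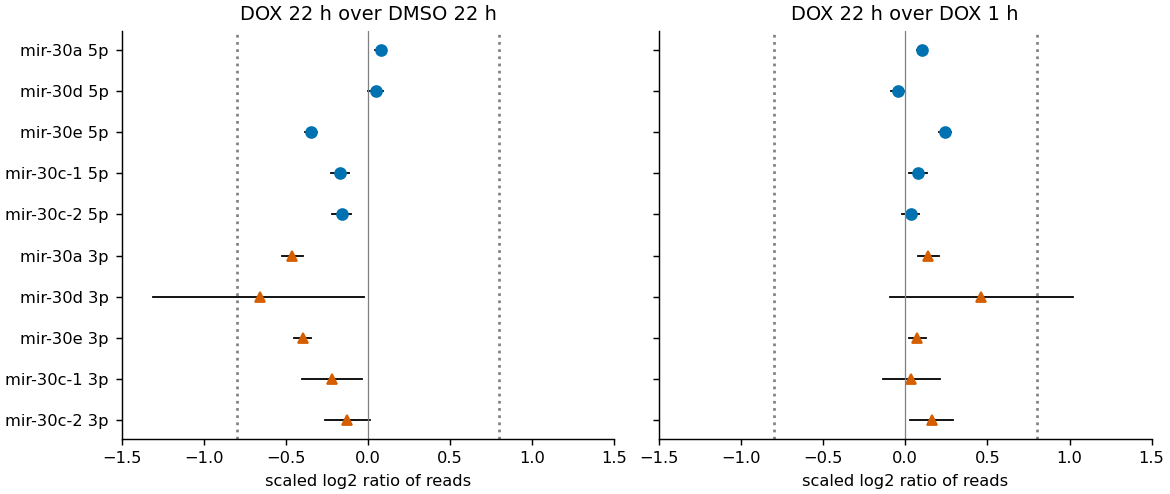
Scaled log2 ratio of recovered reads for each arm of the members (circles for 5p, triangles for 3p) with exact 95% intervals for counting error, for DOX 22 h over DMSO 22 h on the left and DOX 22 h over DOX 1 h on the right, with dotted lines at the limit of 0.8. On the left all 3p arms lie below 0, on the right all lie above 0, and no arm's ratio passes the limit.

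Within the 5p arm of mir-30e, forms went in opposite directions between the 22 h libraries. The form of 18 bases had 4392 reads in the DOX 22 h library, 5960 in the DMSO 22 h library and 3842 in the DOX 1 h library. Its scaled log2 ratio was -0.61 (interval -0.67 to -0.55) over DMSO 22 h and 0.56 (interval 0.49 to 0.62) over DOX 1 h. It was thus highest in the DMSO 22 h library and lowest in the DOX 1 h library. The form of 17 bases had 3150, 4242 and 3894 reads and log2 ratios of -0.60 and 0.06. These forms, like those with a differing last base, a later start or 17 bases described next, each held under 10% of their arm and were named after their values were seen. Over the 103 matching entries of 18 bases of other precursors, the median log2 ratio over DMSO 22 h was 0.01, with 54 above 0 and 49 below. For the 74 of 17 bases it was -0.09, with 31 above and 43 below.

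The form of 20 bases with a differing last A went the other way. In mir-30e it had 2929 reads in the DOX 22 h library, 1834 in the DMSO 22 h library and 3616 in the DOX 1 h library, with a scaled log2 ratio of 0.51 (interval 0.42 to 0.59) over DMSO 22 h and 0.06 (interval -0.01 to 0.13) over DOX 1 h. In mir-30a the same kind of form had 5371, 3617 and 6538 reads and a log2 ratio of 0.40 (interval 0.34 to 0.46) over DMSO 22 h. In mir-30d it had 3724, 3081 and 4856 reads and a log2 ratio of 0.10 (interval 0.03 to 0.17). This form was lowest in the DMSO 22 h library in each of these 3 members, by scaled as well as by raw reads. Over the 48 entries of other precursors with a differing last A, the median log2 ratio was -0.01, with 24 above 0 and 24 below.

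The other recovered 5p forms of mir-30a and mir-30d had log2 ratios over DMSO 22 h between -0.35 and 0.15. The form of 21 bases with a differing last T had log2 ratios over DMSO 22 h of 0.01 in mir-30a and 0.11 in mir-30d. The form of 17 bases was at -0.35 in mir-30a and at -0.17 in mir-30d. The form that starts 1 base later was at 0.15 in mir-30a and at -0.06 in mir-30d. In the 5p arm of mir-30c-1, the form of 20 bases had 2746, 2818 and 3447 reads in the DOX 22 h, DMSO 22 h and DOX 1 h libraries, with log2 ratios of -0.21 and 0.03. The same sequence under mir-30c-2 had 2811, 2799 and 3549 reads and log2 ratios of -0.16 and 0.03.

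The leading 3p forms of mir-30a, mir-30e, mir-30c-1 and mir-30c-2 had ratios below 0 over DMSO 22 h. The most abundant 3p form of mir-30a had 1550 reads in the DOX 22 h library, 2022 in the DMSO 22 h library and 1856 in the DOX 1 h library, with log2 ratios of -0.55 (interval -0.65 to -0.46) and 0.10. That of mir-30e had 2815, 3271 and 3769 reads, with log2 ratios of -0.39 (interval -0.46 to -0.31) and -0.06. The variant of the mir-30e 3p form with a differing last T had 1267, 1630 and 1291 reads, with log2 ratios of -0.53 and 0.34. The leading 3p form of mir-30c-1 had 344, 420 and 423 reads and a log2 ratio of -0.46 over DMSO 22 h, and that of mir-30c-2 had 671, 705 and 774 reads and -0.24. Not every form followed its arm. The other 3p forms of mir-30c-1 were at 0.17, 0.79 and 1.26 over DMSO 22 h, with 72 and 57, 35 and 18, and 43 and 16 reads, of which the last 2 held under 10% of the arm and were named after their values were seen. Over DOX 1 h the leading form of mir-30e lay below 0 and its arm above.

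Some single entries of the family were called. Of all 1216 entries with at least 20 reads, 18.2% (221) were called between DOX 22 h and DMSO 22 h, and 12.4% (148 of 1190) between DOX 22 h and DOX 1 h. Of the family's 52 and 50 such entries, 3 were called in each comparison, all of them 3p forms of low abundance. Over DMSO 22 h these were a mir-30a form with 40 and 76 reads at -1.10, a mir-30c-1 form with 43 and 16 reads at 1.26 and a mir-30e form with 1 and 21 reads at -4.56. Over DOX 1 h they were a mir-30a form with 139 and 89 reads at 1.01, a mir-30c-1 form with 43 and 31 reads at 0.83 and a mir-30e form with 19 and 48 reads at -0.97. These entries were named because they were called, after their values were seen.

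**Figure D4:**
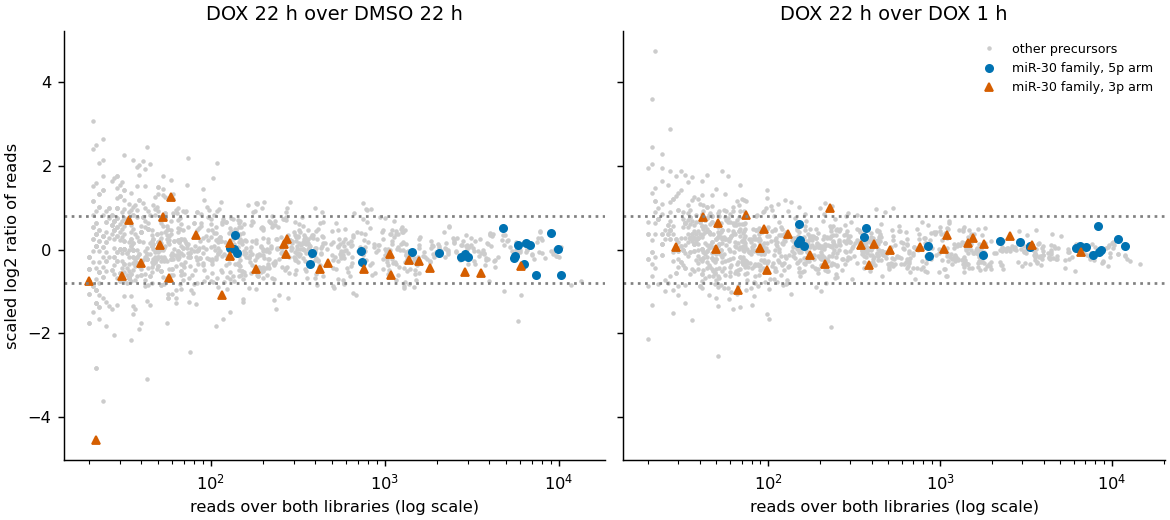
Scaled log2 ratio of each entry with at least 20 reads against its reads over both libraries (log axis), for DOX 22 h over DMSO 22 h on the left and over DOX 1 h on the right, with grey points for other precursors, circles and triangles for the family's 5p and 3p arms and dotted lines at the limit of 0.8. The lowest point on the left is a mir-30e 3p entry with 1 and 21 reads at -4.56, and the family's entries past the limit have few reads.

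From the means alone, only sets of candidate ratios can be given for the most abundant 5p forms. The 21-base forms of mir-30c-1 and mir-30c-2 each had 3 possible combinations, with log2 ratios over DMSO 22 h of 1.88, -0.16 and -2.41 for mir-30c-1 and of 1.81, -0.19 and -2.45 for mir-30c-2. The mir-30b form had 5, at 2.45, 0.90, -0.24, -1.47 and -3.70. The leading form of mir-30d had 7, at 4.57, 2.09, 0.96, 0.07, -0.82, -1.89 and -3.88. In each of these sets 1 candidate lay within the limit of 0.8. The leading forms of mir-30a and mir-30e had 14 and 9 candidates with 4 and 2 within the limit. Which combination held was not tested for any of these entries, and no candidate was chosen. The 24 recovered 5p entries of the family had log2 ratios from -0.61 to 0.51 over DMSO 22 h. They are less abundant forms, and whether the leading forms went with them was not tested.

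The 5 arms outside the family whose pair of log2 ratios lay nearest to that of the family's recovered 5p sum (-0.09 over DMSO 22 h and 0.09 over DOX 1 h) were chosen by Euclidean distance among 175 arms with at least 100 reads in each of the 3 libraries. They were mir-26b 5p (-0.14 and 0.11), mir-181a-2 5p (-0.12 and 0.03), mir-21 5p (-0.02 and 0.12), mir-128-2 3p (-0.18 and 0.09) and mir-92a-1 3p (-0.09 and 0.18). The likeness rests on 2 ratios that share a library.

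As a check of the label, the 7 precursors fixed as cardiomyocyte markers, among them mir-1, mir-133a, mir-208 and mir-499a, all had a mean and made up 33.5% to 37.1% of each table. Of the smooth muscle list, mir-143 made up 18.97% to 20.6% and mir-145 0.321% to 0.385%, and the endothelial mir-126 3.24% to 4.41%. The 4 fibroblast precursors made up 0.276% to 0.389%, and the red cell and leukocyte lists at most 0.0259% and 0.00884%. Their part in the levels of the family was not tested, and in a bulk sample fewer cells of a type and less RNA per cell cannot be told apart.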

How the data were processed

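Small RNA libraries of guinea pig ventricular cardiomyocytes (4 groups of 3, grouped by the sample labels) were prepared with a TruSeq kit. The authors mapped reads against human sequences with BaseSpace Small RNA v1.0 (hg19 in the submitters' processing notes, with FastQC and MultiQC), and bases in which guinea pig and human differ can affect such counts. The deposited tables give, per entry, a mean signal (reads divided by size factors, averaged over both sides) and the authors' own comparison (control and treated means, log2 fold change, standard error, p-values, status), which was not used. Depth per library is not given, and the means summed to 5874898, 4776593 and 6005178 normalized reads.

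The 1 h and 22 h tables had lost decimal marks. Each value was given the power of 10 nearest to that entry's mean in the third table (1506 of 1610 and 1323 of 1335 means), and 15 values under 10 at 1 h, none of them members, were raised by a power of 10. All 67 member means were restored at 22 h and 69 of 79 at 1 h, and the other 10 member entries have no mean here.

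Start positions more than 15 bases apart were taken as different arms. Reads were solved from the means as whole numbers, jointly over both tables, where 1 solution was left. The step sizes showed which library was common: its reads held in both tables for all 1052 entries tested, against at most 132 for any other assignment. Recovered reads totalled 474736 (DOX 22 h) and 440362 (DMSO 22 h) over the solved entries of the 22 h table. Over those of the table of both DOX times they totalled 476297 (DOX 22 h) and 626032 (DOX 1 h). Entries with more than 1 solution are left out, so these totals are not library depths. Simulated reads were recovered rightly in 100% of the 942 entries with 1 solution for DOX 22 h over DMSO 22 h (1320 simulated). The same held in 100% of 1896 for DOX 22 h over DOX 1 h (2355 simulated). A mean simulated from whole reads always has those reads among its solutions, so an entry with 1 solution is right by construction. The simulation therefore does not test the restored decimal marks or whether reads were pooled over several libraries. Ratios were scaled by the value of 1 read in the means, and for 0 reads 0.5 was put.

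Members, lists and rules were chosen with earlier results of these data known. Named were all members and arms, the leading form of each arm, forms over 10% of an arm, and the 5 arms of most similar pattern, with exceptions marked in the text. Alternatives were other entry filters, scalings, solutions and limits. Python 3.11.15, numpy 2.4.6, pandas 2.3.3 and scipy 1.17.1 were used.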

Additional observations from a re-analysis of the deposited data

How the results depend on the processing

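No paired analysis was possible because the tables carry no value for a replicate, and for the same reason no replicate could be left out. Of the main values recomputed under an alternative, 69 stayed within an interval of the main value, or within 1.5 times for a count. The other 33 moved, for causes that were not tested. For shares and pair ratios the interval was a binomial one on summed normalized means. Those are not read counts, so for these values it does not measure counting error. With the most abundant entry of each precursor arm only, the family's share was 4.23%, 4.40% and 4.20% of the 3 tables (1 h, 22 h, both DOX times), its 5p share 95.4%, 94.9% and 95.6%, and 6 of 11 arms at 1 h and 7 of 12 for both DOX times kept their rank. The 5p ratio was then 4.32, 4.18 and 4.62 for mir-30a to mir-30c-2, 1.67, 1.29 and 1.57 for mir-30d to mir-30b, and 2.92, 2.82 and 3.24 for mir-30e to mir-30c-1. With only entries in all 3 tables, the third table gave a family share of 6.22% and a 3p share at the first start of 93.7%. The family's log2 ratio of DOX 22 h over DMSO 22 h became -0.031 (5p) and -0.33 (3p) when scaled by total recovered reads, -0.20 (5p) with the most abundant recovered entry, -0.27 (3p) with each table solved on its own and -0.30 (3p) with at most 1000 reads. That of DOX 22 h over DOX 1 h became 0.13 (5p) by total reads, 0.14 (5p) and 0.023 (3p) with the most abundant entry, 0.12 (5p) and 0.15 (3p) with at most 1000 reads, and -0.59 (5p) and 0.28 (3p) with that table solved on its own, where 574 of 2369 entries had 1 solution. Member arms past the limit went from 0 to 1 at 22 h with a limit of 1.5-fold and from 0 to 1 for both DOX times solved alone. Over all arms, 73 (22 h) and 45 (both DOX times) passed a 1.5-fold limit, and 26 and 12 a limit of 1. With at least 100 reads, 9 of 228 and 4 of 245 arms passed the main limit.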

Other observations

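Some family entries had no place in the comparisons. At 1 h, 10 member entries had no mean that could be restored. They include 4 later-starting 5p forms of mir-30d. A sequence of the 5p arm of mir-30a was also listed under mir-30e, and a sequence of the 3p arm of mir-30e under mir-30a, in both cases with no mean under the second precursor. Besides the mir-30c pairs, these were the only sequences of the family listed under 2 of its precursors, 11 in all.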
